A study of Mus musculus with 4 samples.

Results

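The regions described here were 4659 CpG-poor windows of the mouse autosomes whose methylation level was 10 to 40% in both wild-type libraries. DNA methylation was measured by reduced representation bisulfite sequencing (RRBS), in which the enzyme MspI cuts DNA at CCGG sites and bisulfite then converts unmethylated cytosines, so that each read calls each CpG cytosine as methylated or unmethylated. The genome was divided into windows of 1 kb, and a window's level was its methylated calls as a percent of all its calls. A window had to hold 3 to 9 CpG cytosines with 10 or more calls in all 4 libraries, and no window with 40 or more such cytosines could lie directly beside it. Of 121563 windows with 3 or more shared cytosines, 119319 lay on chromosomes 1 to 19. Of these, 75812 held 3 to 9 cytosines and 73222 of those had no dense window beside them. The 4659 chosen windows were 6.36% of these 73222 and held 25334 cytosines. The WT levels thus chose the windows, and every WT level below is a description. The KO levels took no part in the choice.

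The libraries came from mouse embryonic stem (ES) cells, 2 of wild type (WT) and 2 of a knockout of Naa10 (KO), the catalytic subunit of an N-terminal acetyltransferase. Both genotypes were grown in N2B27 medium with LIF, the Mek inhibitor PD325901 and the Gsk3 inhibitor Chir99021 on irradiated mouse feeder cells, and then passaged without feeders before DNA was extracted. Separate clones or cultures are not named in the labels, so that p-values here reflect only how far the sequenced libraries differ, a spread that may be technical. The libraries held 68548142 to 79496304 calls, and the median depth of a shared cytosine was 26 to 30 calls.

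In mammalian genomes most CpG-poor DNA is highly methylated, and CpG islands are mostly free of methylation. Between these lie CpG-poor stretches of low but not absent methylation, which in ES cells are known to be often distal regulatory elements bound by transcription factors. Methylation at such places is set by the maintenance of methylation at each cell division, by new methylation and by demethylation by TET enzymes. ES cells grown with Mek and Gsk3 inhibitors are known to carry less methylation than ES cells grown in serum. No chromatin mark, bound factor or mm9 gene annotation was used here, so that the windows are named by position, and whether they are regulatory was not tested. Positions are on the mm9 build, counted from 1.

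In the KO cells these windows carried much less methylation than in the WT cells. The mean level over the 4659 windows was 25.2% and 24.96% in WT replicates 1 and 2. It was 6.10% and 4.55% in KO replicates 1 and 2. The WT libraries were almost equal, and both KO libraries were far below them. The group means were 25.1% ± 0.149 in WT and 5.32% ± 1.10 in KO (SD, n = 2 libraries each), a difference of -19.7 points. The KO level was therefore 21.2% ± 4.39 of the WT level (SD over the KO libraries, n = 2), with 24.4% and 18.1% kept in KO replicates 1 and 2. The median window kept 18.2%. Since the WT levels chose the windows, no test is given for this difference. A loss in the KO cells and a gain in these WT cultures cannot be told apart from levels alone.

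The KO libraries also differed from each other. The mean level in KO replicate 2 was 74.5% of that in KO replicate 1, and 2987 of the 4659 windows (64.1%) were lower in KO replicate 2, while 1552 (33.3%) were lower in KO replicate 1. The middle window was at 25.4% and 25.1% in WT replicates 1 and 2, and at 4.81% and 3.61% in KO replicates 1 and 2. The 90th percentile of the windows was 13.1% and 9.50% in KO replicates 1 and 2, and the highest window reached 33.8% and 34.7%. No window was above the 40% bound in either KO library. The background of unconverted or miscalled cytosines was not measured separately. The 4023 windows with 80 or more cytosines had WT means of 0.819% and 0.817% and KO means of 0.416% and 0.318%, small beside these values. True methylation may be part of them.

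**Figure D1:**
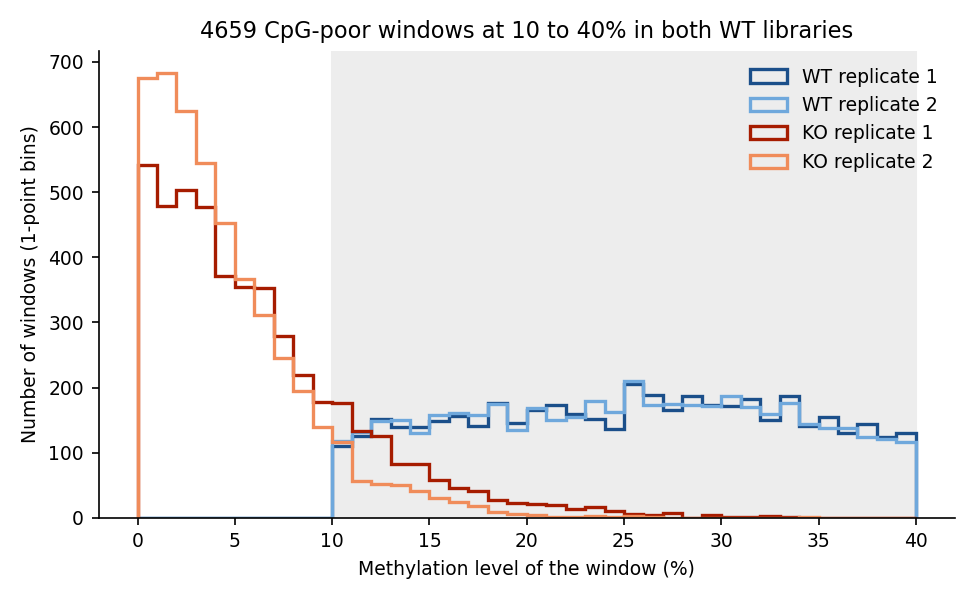
Number of CpG-poor windows (y axis, bins of 1 point) by methylation level in percent (x axis) in each of the 4 libraries, with the 10 to 40% range that chose the windows in the WT libraries shaded. The WT lines fill the shaded range by construction, and the KO lines pile up under 10%, with medians of 4.81% and 3.61%.

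Nearly all windows showed the lower level. The genotypes did not overlap, with KO lower, in 4605 of the 4659 windows (98.8%), against 89.0% of all 121563 windows. Each window was tested on its counts of methylated and unmethylated calls by edgeR's quasi-likelihood method, adjusted over all 121563 windows by Benjamini-Hochberg, and a window was called where the adjusted p was under 0.05 and the group means differed by 10 or more points. By this rule 4128 of the 4659 windows (88.6%) were called lower in KO, where 76.3% of all windows were called lower. None was called higher, against 0.00247% of all windows. No window was higher in KO at an unadjusted p under 0.05 either, and limma and Fisher's exact test on pooled counts called none higher. Since the WT levels chose the windows and also enter this contrast, nothing is read from these counts. The room to differ by 10 points also depends on the WT level. Of windows with a WT mean of 10 to 20%, 1034 of 1414 (73.1%) were called, of those at 20 to 30% 1666 of 1772 (94.0%), and of those at 30 to 40% 1428 of 1473 (96.9%). In 410 windows the KO mean was less than 10 points below the WT mean or above it.

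The same windows were therefore also chosen on 1 WT library and read in the other. Choosing on WT replicate 1 alone gave 5577 windows, of which 83.5% were also in range in WT replicate 2. Their mean in WT replicate 2 was 25.8%, against 6.16% and 4.59% in KO replicates 1 and 2, so that 20.8% of the WT level was kept. Both KO libraries were below WT replicate 2 in 5496 of these windows (98.5%), against 91.7% of all windows. Choosing on WT replicate 2 gave 5606 windows with a mean of 26.1% in WT replicate 1 and of 6.23% and 4.59% in KO replicates 1 and 2, and 20.7% was kept. Here both KO libraries were below WT replicate 1 in 5523 windows (98.5%), against 91.9% of all. The share kept thus hardly moved when the WT level that chose the windows was not the one that measured them.

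The edgeR test was repeated for these windows with the choosing library left out, so that the lone WT library was assumed to vary like the KO libraries. It called 3521 of the 5577 windows (63.1%) lower in KO and none higher, where 73.6% of all windows were called lower and 0.000823% higher. With the roles of the WT libraries exchanged it called 3648 of 5606 (65.1%) lower and none higher, where 73.8% of all windows were called lower and 0.000823% higher. The called shares were below those of all windows, whose WT mean was 59.2%. In windows chosen at 10 to 20% in WT replicate 1 the means were 15.2% in WT replicate 2 and 3.79% and 2.88% in the KO libraries, and 21.9% was kept. In those chosen at 20 to 30% the means were 25.8%, 6.04% and 4.53%, and 20.5% was kept. In those chosen at 30 to 40% the means were 35.2%, 8.37% and 6.15%, and 20.6% was kept. The kept share was therefore nearly the same across the whole range of WT levels.

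Most windows were below the low-methylated range in the KO cells. In 3658 of the 4659 windows (78.5%) both KO libraries were under 10%. Both were under 5% in 2075 windows (44.5%) and under 2% in 678 (14.6%). KO replicate 1 had no methylated call in 293 windows and KO replicate 2 had none in 366, and 105 windows (2.25%) had none in either. At the other end, 324 windows (6.95%) were still at 10 to 40% in both KO libraries, and 677 (14.5%) were so in 1 of them. By library, 903 windows were in range in KO replicate 1 and 422 in KO replicate 2. At least 50% of the WT level was kept in 266 windows (5.71%), and in each KO library separately in 120 (2.58%). Under 10% was kept in 1168 windows (25.1%), and in each KO library in 777 (16.7%).

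The low-methylated range of the KO cells was filled by other windows. Of the 73222 CpG-poor windows with no dense neighbour, 37076 (50.6%) were at 10 to 40% in both KO libraries, and only 324 of these (0.874%) were among the 4659. Their median WT level was 87.6%. A WT mean of 80% or more was found for 26726 of them (72.1%), against 61.4% of all 73222. It was 60 to 80% for 8112 (21.9%), and above 40 and under 60% for 1820 (4.91%). Among all 73222, the classes at 60 to 80% and at 40 to 60% held 13759 and 5626 windows. Of 12271 CpG-poor windows under 10% in both KO libraries, 3658 (29.8%) were among the 4659.

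The 5 windows with the highest level in the lower of their KO libraries were chr18:38757001-38758000, chr7:31221001-31222000, chr11:101631001-101632000, chr4:134983001-134984000 and chr4:136319001-136320000. None of them was called in either direction. The window on chromosome 18 read 33.3% and 12.2% in WT and 29.6% and 34.7% in KO, from 3 cytosines and 41 to 72 calls. Its groups overlapped, and the 95% Wilson interval of WT replicate 2 ran from 5.32 to 25.5%, which covers counting error only, as do all such intervals and limits here. All of them count each call as independent. A read can call several nearby cytosines, and there the intervals are too narrow and the limits too low. The window on chromosome 7 read 35.5% and 35.2% in WT and 33.8% and 26.1% in KO. The window chr11:101631001-101632000 read 37.3% and 35.8% in WT and 32.1% and 25.4% in KO, from 159 to 220 calls. In both of these windows the KO libraries were below the WT libraries, but by little.

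The best-covered of the 5 was chr4:136319001-136320000, with 8 cytosines and 420 to 511 calls. It read 32.8% and 34.8% in WT (33.8% ± 1.40) and 24.5% and 21.7% in KO (23.1% ± 1.98; SD, n = 2 each), so that 68.4% was kept. The KO libraries were below the WT libraries without overlap, and edgeR's quasi-likelihood test gave an adjusted p of 0.143. Inside this window the cytosines differed. The cytosine at 136319777 was at 52.2% and 54.1% in WT and at 47.1% and 46.7% in KO, while that at 136319834 was at 21.7% and 21.6% in WT and at 5.88% and 11.1% in KO. A window's level could also rest on a single cytosine. In chr4:134983001-134984000, which read 36.4% and 38.5% in WT and 23.5% and 24.6% in KO, the cytosine at 134983892 was at 90.9% and 100% in WT and at 70.6% and 68.4% in KO. Its other cytosines, at 134983831 and 134983923, were at 0 to 15.4% in every library.

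At the other end of the range, the 5 windows with no methylated KO call and the most calls were chr17:30765001-30766000, chr2:179274001-179275000, chr6:57484001-57485000, chr9:63724001-63725000 and chr12:92577001-92578000. Their WT levels ran from 14.5 to 25.8%, and every KO library was at 0. The window on chromosome 12 held 6 cytosines and read 23.7% and 25.8% in WT. It had 0 of 215 calls in KO replicate 1, which allows a level of up to 1.40%, and 0 of 237 in KO replicate 2, which allows up to 1.27%. Each of its 6 cytosines was at 16.0 to 33.3% in the WT libraries and at 0 in the KO libraries. The window on chromosome 17 read 14.6% and 14.5% in WT, and 0 of 259 and 0 of 242 calls in KO, which allow up to 1.16% and 1.24%. The limits of both windows count each call as independent, and they are too low where a read called several cytosines. These windows were chosen for their KO level, so their values are a description.

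The 5 windows with the most calls are given next. Their depth per cytosine was well above the median of 26 to 30 calls for a shared cytosine, and the reason for this was not tested. In chr12:30872001-30873000, with 961 to 1179 calls per library, the WT libraries read 36.05% and 37.9% (37.0% ± 1.29) and the KO libraries 13.2% and 8.50% (10.9% ± 3.33; SD, n = 2 each). The KO libraries were both lower, and their Wilson intervals of 11.2 to 15.5% and 7.01 to 10.3% did not overlap. These intervals count each call as independent, and they are too narrow where a read called several cytosines. The window chr5:120754001-120755000 read 30.1% and 33.8% in WT and 12.8% and 6.96% in KO. The window chr1:138628001-138629000 read 16.6% and 16.8% in WT and 3.59% and 4.16% in KO, so that here KO replicate 2 was not the lower one. The windows chr14:43726001-43727000 and chr14:42634001-42635000 read 22.4 to 27.6% in WT and 1.97 to 4.06% in KO. All 5 were called lower in KO, with adjusted p from 2.03e-11 to 2.61e-05 by edgeR's quasi-likelihood test, against 76.3% of all windows. The WT levels chose these windows and enter the test, so nothing is read from these calls. The 5 windows kept 11.9 to 31.0% of the WT level.

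The order of the windows by KO level was shared in part between the KO libraries. Windows were sorted on KO replicate 1 and read in KO replicate 2, so that the library that sorted them did not measure them. The 1020 windows under 2% in KO replicate 1 had a mean of 1.80% in KO replicate 2. The mean in KO replicate 2 was 3.07% for the 1352 windows at 2 to 5%, 5.22% for the 1384 at 5 to 10%, 8.28% for the 795 at 10 to 20% and 12.9% for the 108 at 20% or more. The mean in KO replicate 2 thus followed the order of the groups set by KO replicate 1. WT levels rose along it as well, from 21.5% for the first of these groups to 31.7% for the last. In points this WT rise was close to the rise in KO replicate 2, from 1.80 to 12.9%. Relative to the level of the first group it was much smaller. The rule also bounded the WT levels, and the part they play in the shared order was not tested.

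**Figure D2:**
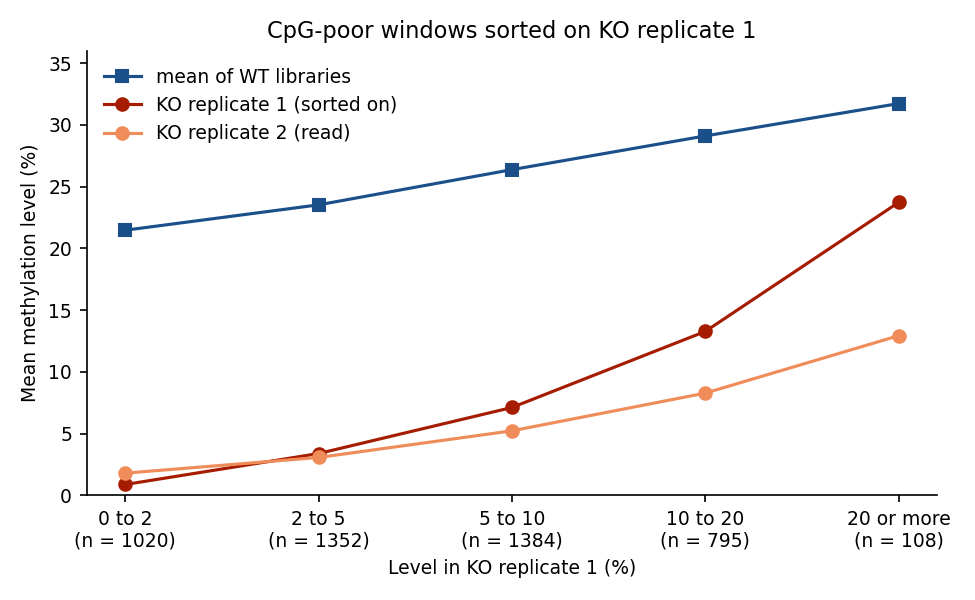
Mean methylation level in percent (y axis) of CpG-poor windows grouped by their level in KO replicate 1 (x axis, with the number of windows), for KO replicate 1, for KO replicate 2 and for the mean of the WT libraries. The level in KO replicate 2 climbed from 1.80 to 12.9% and the WT mean from 21.5 to 31.7%.

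Across the 4659 windows the levels of the KO libraries correlated with Pearson's r = 0.68 (Spearman's rho = 0.66), and the WT mean correlated with the KO mean with r = 0.37 (rho = 0.39). These are descriptions across windows, which share libraries and depth. Within these windows the WT libraries differed by little more than sampling noise, and the KO libraries by more. The choice needed both WT libraries in range, so the WT agreement here follows in part from the rule. A chi-square statistic comparing libraries of 1 genotype, which is about 1 per window where they differ by sampling alone, was 1.16 per window between the WT libraries (4648 windows) and 2.45 between the KO libraries (2463 windows). Over CpG-poor windows with no dense neighbour, chosen or not, it was 1.33 between the WT libraries (62844 windows) and 5.55 between the KO libraries (64727 windows). The statistic did not cover every window, so the WT and KO values come from unlike sets of windows.

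The kept share was compared with that of other window classes. In CpG-poor windows with no dense neighbour and a WT mean of 40 to 60% (5626 windows) the mean was 51.1% in WT and 12.8% and 8.83% in the KO libraries, and 21.2% ± 5.51 was kept (SD, n = 2). This was -0.06 points from the 4659 windows, with 0.73 points in KO replicate 1 and -0.85 points in KO replicate 2. In windows at 60 to 80% in WT (13759) the share kept was 24.1%, 2.86 points more. In windows at 80% or more (44955) it was 30.4%, 9.11 points more, with levels of 32.8% and 22.0% in the KO libraries. In windows under 10% in WT (3299), whose means were 3.67% in WT and 1.21% and 1.05% in KO, it was 30.7%, 9.42 points more, or 5.43 points more by the median of the windows' ratios. The KO levels of this class lay close to the 0.416% and 0.318% of the windows with 80 or more cytosines, whose own kept share was 44.9%, and the part such a floor plays was not tested. Each of these last 3 differences had the same sign in both KO libraries. WT levels define these classes, so no test of them is given.

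Windows chosen at the same WT bounds but with more measured cytosines kept more. The number of measured cytosines also depends on MspI sites and depth, and CpG content itself was not tested. The classes of 10 or more cytosines could also lie beside a dense window, which the 4659 windows could not. The part this plays was not tested. In windows of 10 to 19 cytosines at 10 to 40% in both WT libraries (2515) the mean was 23.3% in WT and 6.73% and 4.76% in KO, and 24.6% was kept, 3.38 points more than in the 4659 windows. In those of 20 to 39 cytosines (1194) 27.2% was kept, 5.92 points more (8.47 in KO replicate 1 and 3.37 in KO replicate 2). In those of 40 or more cytosines (346) 29.9% was kept, 8.61 points more (13.1 and 4.13), from means of 19.1% in WT and 7.17% and 4.27% in KO. In CpG-poor windows directly beside a dense window (438) 26.1% was kept, 4.88 points more (6.96 and 2.81). The size of these differences thus depended on the KO library. Both KO libraries showed each of these differences, and each gave p = 0.333 in an exact permutation test over libraries (two-sided), the smallest that 2 against 2 allow. The WT levels chose these classes too and enter this test, so nothing is read from it. The WT means of these classes were 19.1 to 23.3%, below the 25.1% of the 4659 windows, and the part this plays was not tested. Within the 4659 windows the number of cytosines made little difference: the share kept was 20.1 to 22.7% for each number from 3 to 9.

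**Figure D3:**
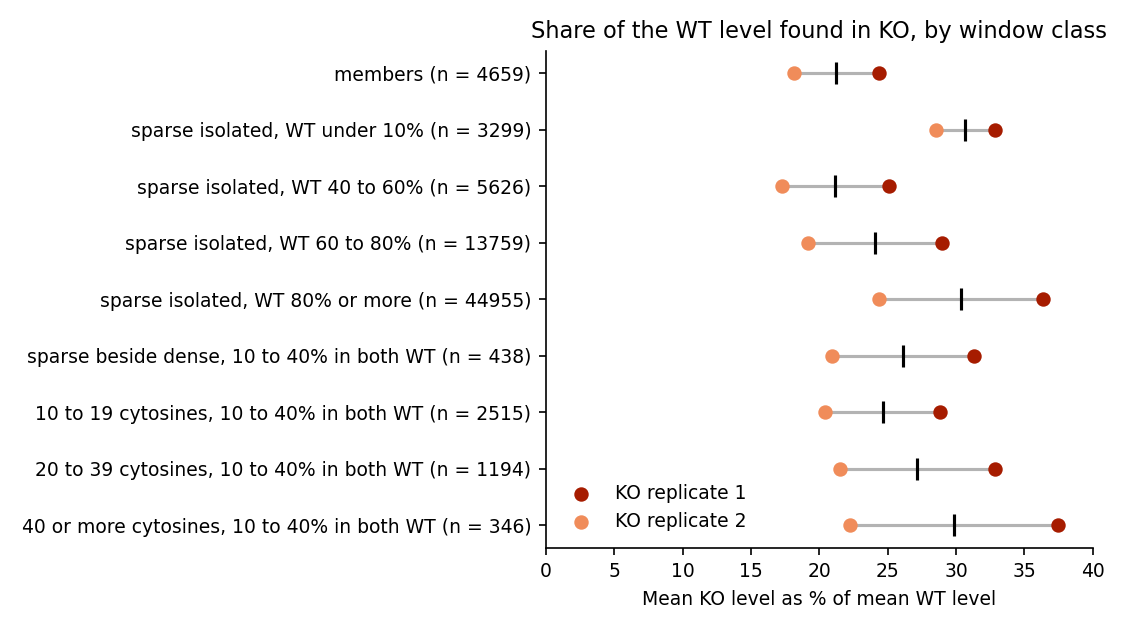
Mean KO level as a percent of the mean WT level (x axis) for 9 classes of windows (y axis, with the number of windows). Points are the KO libraries and the vertical mark is their mean, which was 21.2% for the 4659 windows on the top line. It was 24.6 to 29.9% for windows of 10 or more cytosines at the same WT bounds, which could also lie beside dense windows.

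The distance to the nearest dense window was not used by the rule beyond the directly adjacent one. The chosen windows lay closer to dense windows than other CpG-poor windows did, with a median distance of 34 kb against 60 kb for all 73222. Among windows 2 to 4 kb from a dense one, 12.4% were chosen. This share was 9.31% at 5 to 19 kb, 6.80% at 20 to 99 kb and 3.68% at 100 kb or more. The kept share followed the same order. The 425 windows 2 to 4 kb away had means of 24.6% and 24.4% in WT and 7.58% and 5.68% in KO and kept 27.1% (30.9% and 23.2% in the KO libraries). The 996 windows 100 kb or more away had means of 25.1% and 25.03% in WT and 5.94% and 3.81% in KO and kept 19.5% (23.7% and 15.2%). Both KO libraries kept more in the near windows, by 7.24 and 7.98 points, at almost the same WT level, and the exact permutation test on the ratio of the levels gave p = 0.333, the smallest it allows. The WT levels chose all of these windows and enter this test, so nothing is read from its p-values here or below. The 1243 windows at 5 to 19 kb kept 22.6%. The 1995 windows at 20 to 99 kb kept 20.1%, and against the farthest windows the KO libraries differed in opposite directions there (-1.09 and 2.28 points, exact permutation p = 1).

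By chromosome the 4659 windows numbered from 138 on chromosome 18 to 431 on chromosome 11. They were 4.45% of the CpG-poor windows with no dense neighbour on chromosome 1 and 8.36% on chromosome 11, the lowest and the highest shares. The share of the WT level kept ran from 19.02% on chromosome 12 to 22.9% on chromosome 18, so that the low KO levels were found on every autosome.

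RRBS reads only DNA near MspI sites, and most windows had no measured window beside them. A directly adjacent window with 3 or more shared cytosines was measured for 1839 of the 4659 windows (39.5%), 2075 adjacent windows in all, and on both sides for 236. The adjacent windows had mean levels of 36.8% in both WT libraries and of 11.7% and 8.33% in KO replicates 1 and 2. They were above the chosen windows by 12.3 ± 0.0503 points in WT and by 4.23 ± 1.23 points in KO (SD, n = 2 libraries each). The WT difference follows in part from the choice of low windows, so the genotypes are not tested against each other here. Both differences depended on the processing: they were 3.55 points in WT and 1.27 in KO in windows of 500 bp, 6.29 and 2.46 with a coverage minimum of 20, and 23.0 and 7.92 in windows of 2 kb. The adjacent windows kept 27.2% of their WT level.

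The surroundings rose further with distance. At 2 to 5 kb, windows were above the chosen ones by 19.9 points in WT and 6.89 in KO, and at 6 to 10 kb by 22.4 and 7.83 points. At each distance from 2 to 10 kb the share kept was 28.6 to 29.5%. Many surrounding windows held more cytosines than the chosen ones, so the same was computed over neighbours of 3 to 9 cytosines. These had a WT mean of 44.1% at 1 kb, 56.9% at 2 kb and 62.9% at 10 kb, and a KO mean of 11.8%, 16.6% and 17.9%. Most of the rise seen up to 10 kb was thus reached at 2 kb in both genotypes. A smaller rise followed, to 62.4% in WT and 17.8% in KO at 5 kb. The difference to adjacent windows changed with the window size, so no edge of the dip is given.

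**Figure D4:**
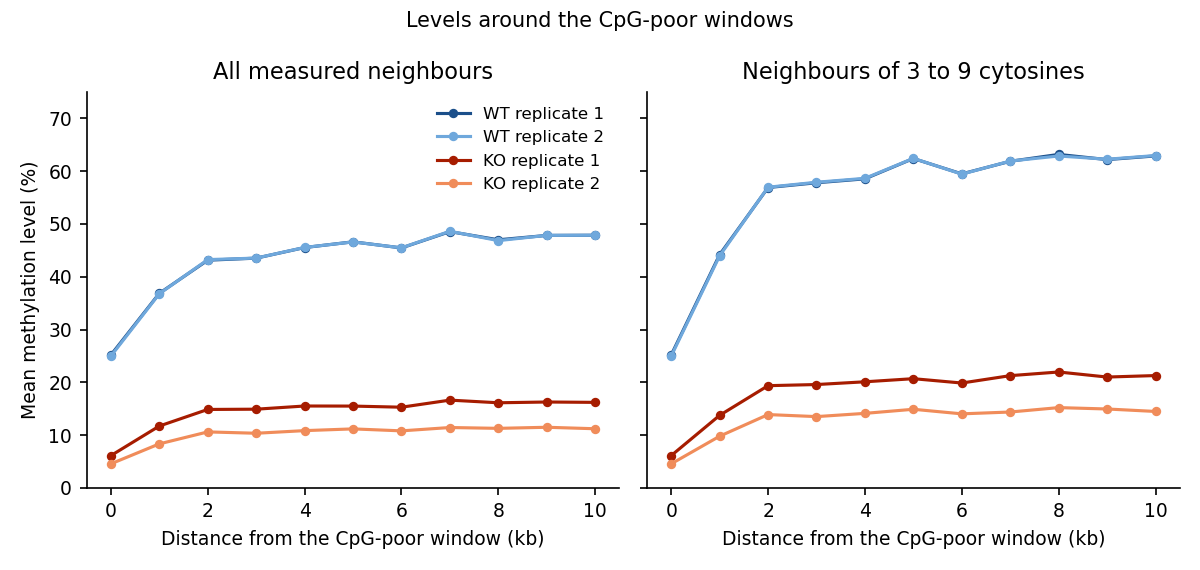
Mean methylation level in percent (y axis) in each library at distances of 0 to 10 kb on either side of the chosen CpG-poor windows (x axis), over all measured neighbours (left) and over neighbours of 3 to 9 cytosines (right). The WT lines lie on each other and climb from 25.1% to 47.9% (left) and 62.9% (right), and the KO lines climb from 5.32% on average to 13.7% and 17.9%.

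The adjacent windows were mixed. In WT 25.1% of the 2075 were under 10%, 33.5% at 10 to 40%, 27.9% above 40 and under 80%, and 13.5% at 80% or more. Among them 338 (16.3%) were themselves chosen windows. Beside CpG-poor windows under 10% in WT this share was 7.58%, beside those at 40 to 60% it was 11.01%, and beside those at 80% or more it was 1.87%. Of the 1839 windows with a measured neighbour, 988 were lower than every measured neighbour in WT and 750 were higher, so that only some had the shape of a local dip. Runs of chosen windows were short: 4326 (92.9%) stood alone, 159 runs held 2 windows and 5 held 3, with none longer. Coverage and the rule limit these runs. The 2820 windows (60.5%) with no measured adjacent window could not be in a run, and adjacent windows of 10 or more cytosines could not be chosen. Run length therefore does not give the length of low-methylated stretches.

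The 402 windows whose measured neighbours were all at 60% or more in WT form the clearest dips. Their own means were 26.1% and 25.8% in WT and 6.48% and 4.72% in KO, and 21.6% was kept. Their neighbours had means of 79.3% and 79.1% in WT and 28.2% and 18.9% in KO, and kept 29.7%. The chosen windows were below the mean of their neighbours in both KO libraries in 381 of 402 cases (94.8%). The window's level was 32.9% and 32.6% of that of its neighbours in WT replicates 1 and 2, and 23.0% and 24.96% in KO replicates 1 and 2. WT levels chose both the windows and these neighbours, so the ratios are a description with no test. In the 24 windows with 2 measured neighbours both at 60% or more, all 24 were below their neighbours in both KO libraries.

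The 426 windows with all measured neighbours under 10% in WT had the opposite shape. Their means were 22.3% and 22.7% in WT and 6.996% and 4.97% in KO, and 26.6% was kept. Only 10 of these were below their neighbours in both KO libraries. The 581 windows whose neighbours were all at 10 to 40% kept 22.5%, and their neighbours kept 23.1%. The 2820 windows with no measured neighbour kept 20.0%, and the 236 with both measured kept 26.2%. The level of a chosen window said little of its neighbours' level within this set: across the 1839 windows Pearson's r was 0.17 in WT and 0.14 in KO, given as a description.

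The windows with the deepest dips between 2 measured neighbours show this at single places. The window chr12:73324001-73325000, with 4 cytosines, read 21.9% and 21.4% in WT and 8.33% and 3.57% in KO. The adjacent window chr12:73323001-73324000 read 95.8% and 95.9% in WT and 48.4% and 27.6% in KO, and chr12:73325001-73326000 read 95.5% and 84.9% in WT and 46.2% and 35.2% in KO. All 3 windows were lower in both KO libraries than in both WT libraries, and the middle one was the lowest in every library. The window chr10:3270001-3271000 read 10.8% and 10.96% in WT and 0 in both KO libraries (0 of 83 and 0 of 68 calls, which allow up to 3.61% and 4.41%). The adjacent window chr10:3269001-3270000 read 52.6% and 65.3% in WT and 8.97% and 8.70% in KO, and chr10:3271001-3272000 on the other side read 97.8% and 93.1% in WT and 46.8% and 32.4% in KO.

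Of the other 3 deepest dips, chr17:25520001-25521000 read 21.1% and 25.7% in WT and 6.38% and 0.990% in KO, between neighbours with a mean of 92.7% in WT and 33.4% in KO. The window chr7:56510001-56511000 read 21.6% and 25.5% in WT and 4.76% and 4.00% in KO, between neighbours at 92.8% and 48.2%. The window chr9:21644001-21645000 read 14.3% and 16.1% in WT and 6.94% and 7.69% in KO, between neighbours at 83.4% and 40.99%. This last window was not called, and the other 4 were called lower in KO. These 5 were picked for the size of the WT dip.

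The longest runs of chosen windows spanned 3 kb each. The run with the most calls, chr4:43980001-43983000, held 15 cytosines and read 25.2% and 28.1% in WT and 11.8% and 11.2% in KO. The run chr11:102954001-102957000 read 24.5% and 22.2% in WT and 4.75% and 6.55% in KO, and chr10:80641001-80644000 read 17.8% and 16.9% in WT and 3.90% and 5.48% in KO. In each run the KO libraries were below the WT libraries without overlap, and KO replicate 2 was the lower one only in the first.

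The windows held cytosines of unlike WT levels, which the choice of windows constrained only through their sum. Of the 25334 cytosines inside the windows, 62.4% and 61.2% were themselves at 10 to 40% in the WT libraries. Under 10% were 19.8% and 21.1%, above 40 and under 80% were 16.3% and 16.2%, and at 80% or more 1.49% and 1.51%. In the KO libraries 78.1% and 84.4% of the cytosines were under 10%, and 39.9% and 46.1% had no methylated call. Among the KO cytosines 20.9% and 15.2% were at 10 to 40%, and 0.967% and 0.343% were above 40 and under 80%. At single cytosines depth limits what can be seen, since the median depth was 26 to 30 calls.

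**Figure D5:**
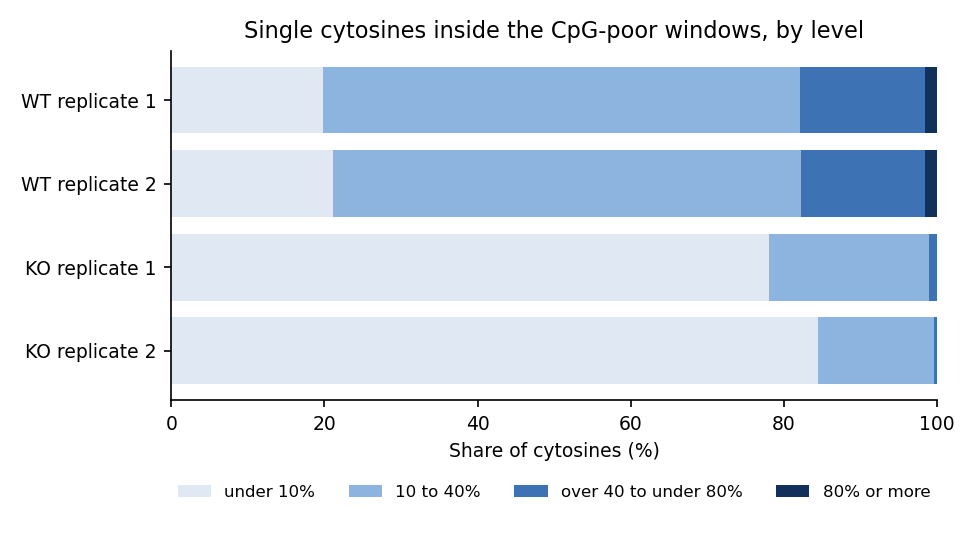
Share of the 25334 cytosines inside the chosen windows (x axis, percent) by methylation level, for each library (y axis). In the WT libraries 62.4% and 61.2% of the cytosines were at 10 to 40%, and in the KO libraries 78.1% and 84.4% were under 10%.

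Cytosines were also sorted on WT replicate 1 and read in the other libraries. The 5012 that were under 10% in WT replicate 1 had means of 8.05% in WT replicate 2 and 1.83% and 1.49% in the KO libraries, and 20.6% was kept. The 15575 at 10 to 40% had means of 23.4%, 5.36% and 4.03%, and 20.1% was kept. The 4369 at 40 to 80% had means of 45.1%, 12.0% and 8.90%, and 23.2% was kept. The 378 at 80% or more had means of 84.7%, 31.4% and 20.2%, and 30.5% was kept. The kept share was thus higher for the few highly methylated cytosines. Windows followed the same order. In 936 windows (20.1%) every cytosine was at 10 to 40% over the pooled WT calls, and these kept 19.01% (21.3% and 16.7% in the KO libraries). In 1270 windows (27.3%) a cytosine under 10% lay with one over 40%, and these kept 23.3%. In 272 of all windows (5.84%) a cytosine under 10% lay with one at 80% or more, and these kept 28.6% (34.2% and 23.1%). The WT means of the even windows and of these last were 23.7% and 30.2%, and both KO libraries showed the difference. The WT levels sorted these windows, so no test is given. In 4361 windows (93.6%) no cytosine was at 80% or more, and these kept 20.6%.

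The cytosines of a window spanned a median of 116 bp, and their WT levels a median range of 30.4 points. In 3473 windows (74.5%) they lay in 1 group with no gap over 100 bp. Many neighbouring cytosines are the 2 strands of the same CpG and were sequenced separately. In 5979 such pairs, in 3370 windows, the first and the second cytosine had mean levels of 24.1% and 23.7% in WT replicate 1 and 5.65% and 5.69% in KO replicate 1. The median difference within a pair was 6.80 and 7.41 points in WT and 3.02 and 2.63 points in KO. Members of a pair differed by more than sampling noise in every library, with a chi-square statistic per pair of 1.85 and 1.73 in WT and of 1.26 and 1.29 in KO.

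The 5 best-covered windows in which 6 or more cytosines were all at 10 to 40% illustrate an even level. In chr2:122120001-122121000, with 8 cytosines, the WT libraries read 20.1% and 23.2% (21.7% ± 2.13) and the KO libraries 5.19% and 2.16% (3.68% ± 2.15; SD, n = 2 each). Over the pooled WT calls its cytosines were at 11.5 to 32.5%. The window chr11:118464001-118465000, also with 8 cytosines, read 20.0% and 19.2% in WT and 1.53% and 0.775% in KO, and 5.89% of the WT level was kept. Its cytosines were at 14.9 to 27.7% in pooled WT. The window chr15:81497001-81498000 read 21.0% and 25.3% in WT and 1.24% and 2.27% in KO, and chr17:25381001-25382000 read 29.0% and 23.7% in WT and 8.28% and 6.30% in KO. The window chr17:35651001-35652000 kept the most of the 5, 39.5%, with 21.9% and 19.5% in WT and 6.11% and 10.2% in KO. All 5 were called lower in KO, with adjusted p from 1.90e-12 to 0.00314 by edgeR's quasi-likelihood test, and in none did the genotypes overlap. Of all windows 76.3% were called lower, and 89.0% had both KO libraries below both WT libraries. The WT levels chose these 5 windows and enter the test, so nothing is read from these calls.

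The bounds of the rule did not mark a step in the KO levels. The 34 chosen windows with a WT mean of 10 to 11% had KO means of 2.71% and 2.41%, and the 211 windows just outside, at 9 to 10%, had 2.68% and 2.20%. The 44 chosen windows at 39 to 40% had KO means of 8.74% and 6.18%, and the 191 just outside, above 40 and up to 41%, had 9.58% and 6.83%. A further 924 windows had a WT mean inside the range but 1 WT library outside it.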

How the data were processed

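RRBS libraries of WT and Naa10-KO mouse ES cells (2 each) were analysed, grouped by the titles in the labels. Per the submitters' processing notes, Trim Galore and Bismark 0.10.1 were used with mouse build mm9. The authors deposited 1 table per library with each cytosine's methylation as a percent and its methylated and unmethylated calls as counts, which are whole and not normalised. Whether calls were filtered before deposit is not given in the sources used here. Only the deposited counts entered the levels and tests.

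Cytosines with 10 or more calls in all 4 libraries were summed in windows of 1 kb. A chosen window had a median of 142 to 167 calls per library (30 to 1179). edgeR 4.0.16 (quasi-likelihood) was fitted to the methylated and unmethylated counts of 121180 of the 121563 windows, with a term per library. The other 383, whose calls were of 1 kind in all libraries, could not be fitted and counted as not called. Benjamini-Hochberg adjustment ran over all 121563. The test was tried on simulated data: it called 71 of 100 windows with a shift of 30 points and 0 of 100 with a shift of 15, and 0 of the rest. The shifted windows had middle WT levels, mostly above those of the chosen windows. Few windows were shifted, and the spread came from the WT libraries alone. These rates therefore do not carry over to the chosen windows, where most windows differed and the KO libraries varied more. Exact permutation tests (scipy 1.17.1) compared single values over libraries. Alternatives are in the closing section, and limma 3.58.1 was one of them.

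Named windows followed fixed rules: 5 each with the highest level in their lower KO library, the lowest in their higher KO library (ties by calls), the most calls, the deepest dip in WT between 2 measured neighbours, and the most calls among 252 windows with 6 or more cytosines all at 10 to 40% in pooled WT, plus the 3 runs of 3 with the most calls. Windows, rules and comparisons were chosen with earlier results of these data known. The labels do not say whether replicate numbers pair the libraries, and the main fit used no pairing. Deviations of same-numbered libraries correlated with r = 0.02 over the chosen windows, which cannot show how the libraries were prepared. No mm9 genome or annotation was used here, so no sequence or gene is given.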

Additional observations from a re-analysis of the deposited data

How the results depend on the processing

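The depth of 30 calls in the shallowest windows, 2 libraries a genotype and the smallest exact p of 0.333 limit every comparison, and RRBS leaves most adjacent windows unmeasured. Replicate numbers as a block (the replicate block) gave 4104 windows called lower in place of 4128, and no paired design is given by the labels. The share of the WT level kept stayed within 4.39 points of 21.2% under every alternative run. Left out in turn, 1 library at a time gave 3028 to 4267 windows called lower, 0 to 1 called higher (1 without KO replicate 2), and 324 to 903 windows still in range (903 without KO replicate 2). The difference to adjacent windows moved from 12.3 points in WT to 14.1 with a coverage minimum of 5, 6.29 with 20, 3.55 in windows of 500 bp, 23.0 in windows of 2 kb, 12.1 with a grid shifted by 500 bp, 12.4 without chromosomes 8 and 14, 10.9 at 20 to 40%, 10.2 at 10 to 50%, 12.1 and 12.3 when chosen on WT replicate 1 or 2, 11.9 with 5 to 9 cytosines, 14.7 with no dense window within 5, 12.2 with mean cytosine levels, 19.9 and 22.4 at 2 to 5 and 6 to 10 kb, and 19.4 over neighbours of 3 to 9 cytosines, an alternative added after seeing the data. In KO it moved from 4.23 to 2.46 with a coverage minimum of 20, 1.27 in windows of 500 bp, 7.92 in windows of 2 kb, 6.89 and 7.83 at 2 to 5 and 6 to 10 kb, and 6.29 over neighbours of 3 to 9 cytosines. It stayed above 0 in each of these, and the cause of these moves was not tested. The share of cytosines at 10 to 40% in WT moved from 61.8% to 59.3 and 66.1 with coverage minimums of 5 and 20, 63.3 and 60.5 in windows of 500 bp and 2 kb, 54.0 at 10 to 50%, and 59.1 and 59.0 when chosen on WT replicate 1 or 2. Other bounds change how many windows are chosen by construction: 2838 windows with 2717 called lower at 20 to 40%, 6414 called lower, 901 still in range and a KO level of 6.61% at 10 to 50%, and 2737 windows with 2409 called lower and 175 still in range with 5 to 9 cytosines. With a coverage minimum of 20, 214 were still in range, and with a minimum difference of 25 points 1203 were called lower. Against other classes, by the median of window ratios the difference in kept share was 5.43 points for windows under 10% and 1.25 for those at 40 to 60%, where the sign also changed without KO replicate 2 (0.73) from -0.06. Leaving out each KO library in turn gave 8.48 to 10.4 points for windows under 10%, -0.85 to 0.73 at 40 to 60%, 1.07 to 4.65 at 60 to 80% and 6.22 to 12.0 at 80% or more.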

Other observations

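On chromosome X, which the choice of windows left out, 67 of 1496 CpG-poor windows with no dense neighbour (4.48%) were at 10 to 40% in both WT libraries. Their means were 23.0% and 23.6% in WT and 6.36% and 4.47% in KO, and 23.3% of the WT level was kept. By edgeR's rule 54 of the 67 (80.6%) were called lower in KO, against 76.3% of all windows. The WT levels chose these windows too, so nothing is read from this count.

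In 8 of the 4659 autosomal windows the KO mean was at or above the WT mean. None was called, with adjusted p from 0.144 to 0.961 by edgeR's quasi-likelihood test. The window with the largest ratio, singled out after its values were seen, was chr8:86726001-86727000, with 10.8% and 12.6% in WT and 24.7% and 15.8% in KO, so that both KO libraries were above both WT libraries. Its measured neighbours had means of 1.05% in WT and 1.10% in KO. The window chr15:100897001-100898000, with 323 to 406 calls, read 15.8% in both WT libraries and 17.3% and 14.9% in KO. The windows chr18:38734001-38735000 and chr18:38757001-38758000 were both among the 8. The first read 13.5% and 11.8% in WT and 16.7% and 10.8% in KO.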
